A study of Mus musculus with 4 samples.

Results

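Wild-type-only islands of 5 to 20 kb are stretches of the genome that carried called H3K36me3 in wild-type mouse myocytes and no called H3K36me3 in myocytes that lack an enhancer of the H19/Igf2 locus. They were chosen from the island list of the wild-type library: islands of at least 5 kb and under 20 kb on the autosomes other than chromosomes 4, 6, 14 and 15 that share no base with any island of the mutant list. There were 892 of them, out of 15172 wild-type islands of this length on the same 15 autosomes and out of 128124 islands in both lists of the series. The rule uses the measured calls of both libraries, so the absence of mutant calls in these islands, called members below, is how they were chosen and not a result.

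Trimethylation of lysine 36 of histone H3 is laid down in mammals mainly by the methyltransferase SETD2, which travels with elongating RNA polymerase II. The mark therefore covers the bodies of transcribed genes, is low at their promoters and is poor over silent chromatin. It helps to keep transcription from starting inside genes, guides DNA methylation of gene bodies and takes part in splicing and mismatch repair. Igf2, which encodes a growth factor of muscle and other embryonic tissues, and H19, an imprinted noncoding RNA gene, share enhancers, some of which act in skeletal muscle.

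H3K36me3 was measured by ChIP-seq with 1 library of each genotype. The mutant library came from cells of FVB mice from which a muscle-specific enhancer of H19/Igf2 had been deleted, and the wild-type library from FVB cells without the deletion. Both were primary muscle cultures taken on postnatal day 4, grown for 5 to 10 passages and harvested 24 hours after growth factors were withdrawn. The sources used here do not say whether both alleles carried the deletion or how many animals were used. An input library of each genotype belongs to the series and was not analysed here. Each genotype is a single library with no replicate check, so no test of genotype was made. Each value below describes these 2 libraries, and genotype and library cannot be told apart. Intervals are 95% intervals, exact binomial ones for shares and order-statistic ones for medians, and cover counting error only. Positions are on mouse build mm9, counted from 1.

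Read totals are not part of the island lists. Depth was solved instead from islands 1 window (200 bp) long, which gave a mean of 3.11 reads per window in the mutant library and 2.82 in the wild-type library. The smallest read count of a window that counted towards an island was 6 in the mutant list and 5 in the wild-type list, which is 1.93 and 1.77 times the mean. A wild-type window of 5 reads could thus count where a mutant window of 5 reads did not. The lowest island score was 22.6 in the mutant list and 30.3 in the wild-type list. With the mutant islands under the lowest wild-type score left out, the number of members was 1358 in place of 892. The part of the difference in reads per window was not tested. Genes were not assigned to islands, since no mm9 annotation was used here, and the labelled cell type was not checked against marker genes.

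Members made up 5.88% of wild-type islands of 5 to 20 kb (interval 5.51% to 6.27%). The exchanged count, mutant islands of 5 to 20 kb that share no base with a wild-type island, was 427 of 13064, or 3.27% (2.97% to 3.59%). The wild-type share was thus 1.80 times the mutant share. Over islands of any length on the same chromosomes the order was the other way round. Of 44597 wild-type islands 7381, or 16.6%, were found in the wild type alone. Of 54525 mutant islands 14074, or 25.8%, were found in the mutant alone. Over the whole lists wild-type islands were longer, with a median of 3800 bp against 3000 bp in the mutant. The 5 kb limit thus keeps a different part of each list. Members covered 5.55 Mb, which was 22.6% of the length of all wild-type-only islands, whereas mutant-only islands of 5 to 20 kb covered 2.73 Mb, or 8.60% of all mutant-only length. Members were 2.37% of the whole island length of the wild type on these chromosomes.

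Most members were only just long enough to be chosen. Their median length was 5800 bp (5600 to 5800), against 7400 bp for the 14280 wild-type islands of the same range that did share sequence with a mutant island, here called shared islands. Of the 892 members, 489 were shorter than 6 kb, 219 were from 6 kb to under 7 kb, and 29 reached 10 kb. The share of islands without a mutant counterpart was 11.8% (10.9% to 12.9%) among wild-type islands of 5 to under 6 kb. It was 4.46% (3.59% to 5.47%) from 7 to under 8 kb and 0.978% (0.645% to 1.42%) from 10 to under 15 kb. Among islands of 15 kb or more it was 2 of 1041, or 0.192% (0.0233% to 0.692%). The intervals of neighbouring length classes overlapped in no case except the last 2.

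Members were also sparse in the wild-type library itself. The island score deposited by the authors sums a Poisson measure of read excess over the windows that counted, so the score divided by the number of windows serves here as a density. Its median was 2.23 (2.18 to 2.29) in members and 3.83 (3.79 to 3.85) in shared islands. A single wild-type window of 5 reads, the fewest that counted, scores 2.42, one of 6 reads 3.18 and one of 8 reads 5.13. An island below 2.42 per window must contain windows that did not count. That held for 555 of 892 members, or 62.2% (58.9% to 65.4%), and for 1451 of 14280 shared islands, or 10.2% (9.67% to 10.7%). Islands found in the mutant alone had the same traits within their own list. Their median length was also 5800 bp (5600 to 6000), and 224 of 427, or 52.5% (47.6% to 57.3%), lay below the 2.88 of the smallest mutant window that counted, against 10.8% (10.3% to 11.4%) of 12637 mutant islands that shared sequence with a wild-type island. Shortness and low density were therefore not particular to members.

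The lower density was also seen among islands of like length. Among islands of 5 to under 6 kb the median score per window was 2.17 in 489 members and 3.41 in 3644 shared islands, a difference of -1.23. Among islands of 6 to under 7 kb it was 2.29 in 219 members and 3.56 in 2505 shared islands, and from 8 to under 9 kb it was 2.12 in 43 members and 3.79 in 1423 shared islands. The medians came closer in some of the thinly filled longer classes, as from 14 to under 15 kb, with 4.35 in 3 members and 4.44 in 321 shared islands. The 1 member of 16 to under 17 kb, at 5.01, was above the 4.76 of the 237 shared islands of its class.

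**Figure D1:**
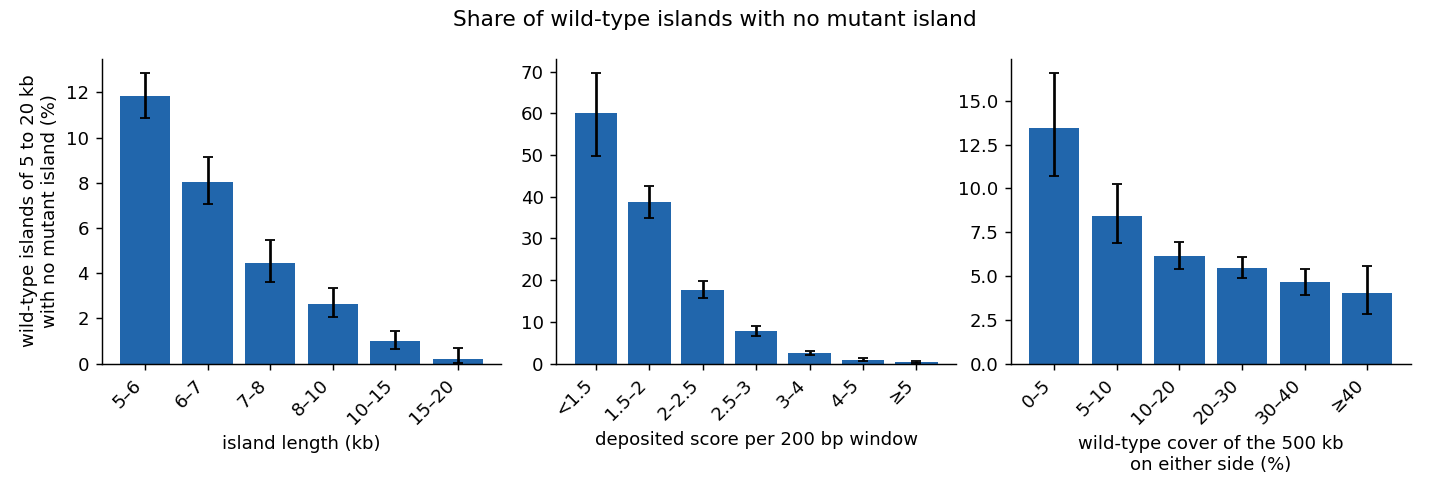
Percentage of wild-type islands of 5 to 20 kb with no mutant island, by island length (left), by deposited score per 200 bp window (middle) and by wild-type island cover of the 500 kb on either side (right). Bars are shares and whiskers exact binomial 95% intervals. The share falls from 11.8% to 0.192% with length, from 60% to 0.407% with score per window and from 13.5% to 4.02% with cover of the surroundings.

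Read by density, absence from the mutant list was common among faint islands and rare among dense ones. Of 100 wild-type islands under 1.5 per window, 60 were members (60%, interval 49.7% to 69.7%). The share was 38.7% of 649 islands from 1.5 to under 2, 7.73% of 2097 islands from 2.5 to under 3 and 0.858% of 3032 islands from 4 to under 5. At 5 or more it was 14 of 3442 islands, or 0.407% (0.223% to 0.682%). The share also varied with the surroundings: where wild-type islands covered under 5% of the 500 kb on either side, 74 of 550 islands were members (13.5%, 10.7% to 16.6%), and where they covered 40% or more, 35 of 870 were (4.02%, 2.82% to 5.55%). Since score, length and calls come from the same reads, these gradients are descriptions.

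A small group of members was as dense as ordinary shared islands. Of the 892 members, 47, or 5.27%, lay above the shared islands' median of 3.83 per window. These dense members ran from 3.84 to 13.2 per window and lay on 13 chromosomes, most often on chromosome 2 with 8, and on chromosomes 5 and 11 with 6 each. Their 50 kb flanks were covered to 16.4% in the mutant and to 34.2% in the wild type. For the other 845 members the flanks were covered to 15.9% in the mutant and to 21.5% in the wild type. Dense members thus lay in better marked wild-type surroundings, with mutant surroundings much like those of the rest. Another member lay within 50 kb of 20 of the dense members and of 154 of the other 845. Such a neighbour adds wild-type cover and no mutant cover to the flanks by the rule. The contrast in flank cover is therefore not independent of the choice.

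The highest deposited score and the highest score per window belonged to the same member, on chromosome 5 from 105229401 to 105238600. It was 9.2 kb long with a score of 605, or 13.2 per window, where a wild-type window of 13 reads scores 11.9 and one of 14 reads 13.5. The nearest mutant island lay 70.6 kb away. The next members along the chromosome were also among the 10 densest, from 105248601 to 105255200 (7.19 per window), from 105260001 to 105269200 (6.28) and from 105274401 to 105279800 (6.67). Together these 4 members form a block with no mutant call inside it, and the same mutant-free interval of 180.4 kb holds them all. Whether input DNA has an excess of reads there was not analysed here.

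Most of the other dense members lay closer to mutant islands. On chromosome 2 a 12 kb member from 121123401 to 121135400 scored 466, or 7.76 per window, with a mutant island of 2600 bp only 1.2 kb away and flanks covered to 39.6% in the mutant and to 40.2% in the wild type. Also on chromosome 2, a 10.2 kb member from 166636001 to 166646200 reached 7.18 per window at 3.6 kb from a mutant island. A 5 kb member on chromosome 13, from 12864801 to 12869800, reached 6.70 at 5.8 kb. Members on chromosome 17 from 31888201 to 31894000 (5.49 per window), on chromosome 2 from 119409401 to 119414400 (5.39) and on chromosome 5 from 148433601 to 148439800 (5.29) complete the 10 densest. In distance from a mutant island these 10 ran from 1.2 to 70.6 kb.

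The longest member lay on chromosome 12 from 101223201 to 101239600. It was 16.4 kb long, scored 411 or 5.01 per window, and lay 2.8 kb from a mutant island of 1400 bp. The next 2 were sparser: a 15 kb member on chromosome 1 from 85098401 to 85113400 had 1.96 per window, below the score of a 5-read window, and a 14.8 kb member on chromosome 17 from 46664601 to 46679400 had 2.90. They were followed on chromosome 7 by 89006201 to 89020400 (14.2 kb, 4.84 per window) and on chromosome 9 by 79696801 to 79710800 (14 kb, 4.35). On chromosome 13, 72076801 to 72089200 was 12.4 kb long with 3.62 per window and lay 678.6 kb from the nearest mutant island. By score alone, the 10 highest also took in a 10.6 kb member on chromosome 13 from 24548001 to 24558600 (score 269) and an 11.8 kb member on chromosome 11 from 58859601 to 58871400 (score 257). The other members of 12 kb besides the one on chromosome 2 were on chromosome 9 from 114415001 to 114427000 (4.45 per window), on chromosome 12 from 101294801 to 101306800 (3.98) and on chromosome 11 from 85097401 to 85109400 (2.80). The 29 members of 10 kb or more had a median of 3.62 per window and lay on 13 chromosomes, and 11 of them had another member within the distance that makes a run.

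By chromosome the share of members varied little. It ran from 4.93% of 750 islands on chromosome 12 (3.50% to 6.74%) to 7.65% of 954 islands on chromosome 13 (6.05% to 9.53%), with a median of 5.72% over the 15 chromosomes. The interval held the overall 5.88% on 14 of the 15, with chromosome 13 as the exception. In number, members ran from 27 on chromosome 19 to 94 on chromosome 2, and per 10 Mb from 3.06 on chromosome 12 to 6.24 on chromosome 11. The share of wild-type-only islands was above that of mutant-only islands on every one of the 15 chromosomes, but the intervals of both shares overlapped on 6 of them, chromosomes 1, 7, 10, 12, 18 and 19. The ratio of members to mutant-only islands was lowest on chromosome 1, with 65 and 51, and highest on chromosome 13, with 73 and 22. On the 4 autosomes outside the rule the same share was 7.23% on chromosome 4, 5.70% on chromosome 6, 7.07% on chromosome 15 and 183 of 679, or 27%, on chromosome 14. On chromosome 1 the shares were 5.49% (4.26% to 6.94%) for wild-type-only and 4.99% (3.74% to 6.51%) for mutant-only islands.

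**Figure D2:**
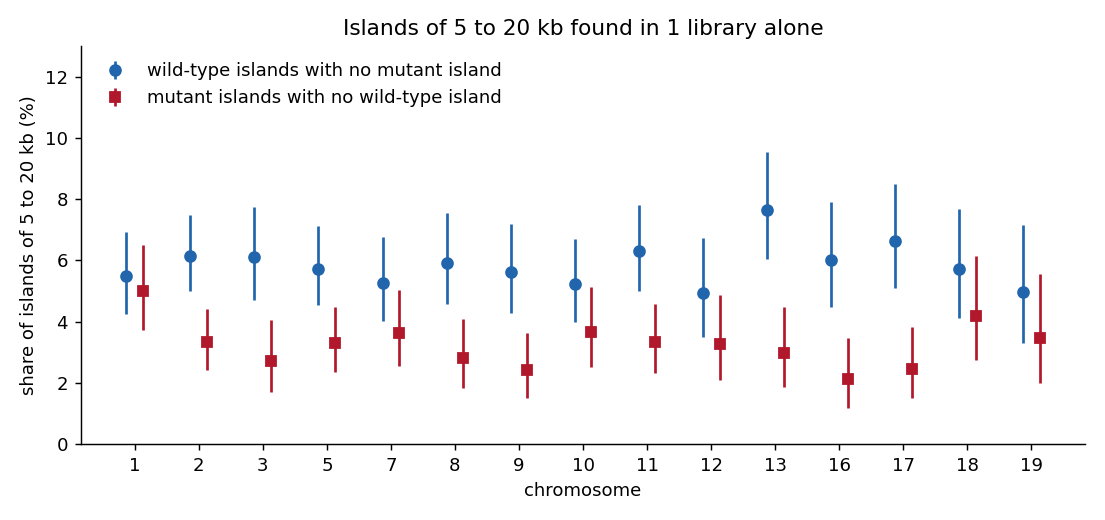
Percentage of islands of 5 to 20 kb found in 1 library alone, by chromosome. Circles are wild-type islands with no mutant island (members), squares mutant islands with no wild-type island, and lines exact binomial 95% intervals. Circles lie between 4.93% and 7.65% and squares between 2.12% and 4.99%, with the circle above the square on each of the 15 chromosomes and overlapping lines on 6.

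Along the chromosomes members were scattered. Of 393 stretches of 5 Mb that held a wild-type island of this length, 88 had no member, 215 had 1 to 3 members, 71 had 4 to 6 and 19 had 7 or more. The most, 11 members among 67 islands (16.4%, interval 8.49% to 27.5%), lay on chromosome 5 in the stretch starting at 145000001, where none of 49 mutant islands was mutant-only. These 11 ran from 5000 to 10000 bp and from 1.61 to 5.29 per window. Of 294 stretches with at least 20 islands, 5 had over 20% members. On chromosome 10 it was the stretch starting at 25000001, with 7 of 23 islands. On chromosome 2 the stretches starting at 140000001 and 110000001 had 8 of 27 and 8 of 31. On chromosome 1 the one starting at 20000001 had 9 of 35, and on chromosome 16 the one starting at 25000001 had 5 of 20. Mutant-only islands numbered 3 of 16 in the chromosome 10 stretch, 1 of 18 in that of chromosome 1 and 0 in the other stretches. These stretches were picked for their counts, after the values were seen.

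About 1 member in 5 had a neighbour of its own kind. Members with fewer than 50 kb between them were joined into runs: 174 members, or 19.5% (17.0% to 22.3%), lay in 74 runs on all 15 chromosomes, and 718 stood alone. The same rule put 87 of 427 mutant-only islands, or 20.4% (16.7% to 24.5%), into 35 runs, with intervals that overlap widely. At a fixed gap the share in runs also depends on how many islands a set holds, and these sets differ in size. Like shares therefore do not show that both sets cluster alike. There were 56 runs of 2 members, 11 of 3, 6 of 4 and 1 of 5, while the largest run of mutant-only islands held 8. Run spans went from 11 to 83.6 kb with a median of 37.6 kb. In 41 of the 74 runs no mutant island lay anywhere between the first and the last member. Summed over all runs, mutant islands covered 6.84% of the 2801 kb spanned and wild-type islands 58.1%. Members count in these spans and by the rule hold wild-type cover and no mutant cover. The contrast, here and for the single runs below, is thus partly fixed by the choice, and cover between members was not computed apart. Of the 47 dense members, 42.6% (28.3% to 57.8%) lay in runs, against 18.2% (15.7% to 21%) of the less dense ones. Lying in a run is shared by its members, so intervals that count each member separately are too narrow here.

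The run with the most members was on chromosome 10 from 26699201 to 26770400. Its 5 members, of 6, 8, 5.2, 7.4 and 5.2 kb, scored 4.67, 5.05, 2.76, 3.12 and 2.74 per window. Over its 71.2 kb mutant islands covered 0% and wild-type islands 58.4%. The closest mutant islands were one of 10 kb that ended 42.8 kb before the first member and one of 2.2 kb that began 8.8 kb after the last, and both shared sequence with wild-type islands. The run thus sits in a gap of 122.8 kb in the mutant calls, with calls of both libraries on either side.

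The run of the longest span was on chromosome 12 from 101223201 to 101306800 and contains the longest member. Over 83.6 kb it held 43.4 kb of members, and mutant islands covered 1.67% of it against 64.8% for wild-type islands. The only mutant call inside was an island of 1.4 kb from 101242401 to 101243800. On both sides larger mutant islands resumed, one of 4.6 kb ending at 101212000 and one of 15.6 kb starting at 101351001.

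The next runs were less empty in the mutant. On chromosome 1, 24294201 to 24359400 held 4 members of 5.2 to 6.8 kb with 3.24 to 4.25 per window, and was covered to 3.37% in the mutant and to 67.5% in the wild type. On chromosome 17, 78659201 to 78710600 held 4 members of 1.47 to 1.99 per window, all below the score of a 5-read window, with cover of 11.7% in the mutant and 62.6% in the wild type. On chromosome 11, 67936401 to 68003800 held 4 members of 5 to 10.6 kb, with cover of 15.7% in the mutant and 69.1% in the wild type. In these 3 runs the mutant calls between the members were islands of 1 to 5.6 kb. The block on chromosome 5 from 105229401 to 105279800, with 4 members in 50.4 kb, was covered to 0% in the mutant and to 73.4% in the wild type.

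**Figure D3:**
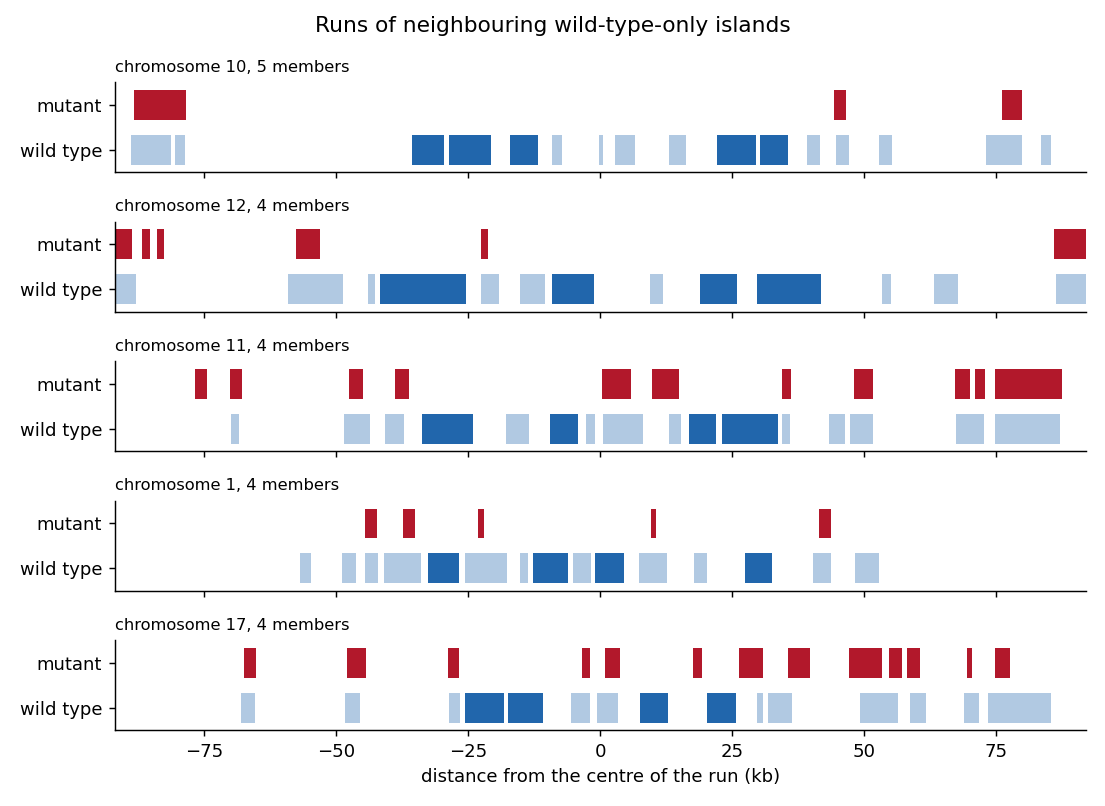
Islands in the 5 runs with the most members (ties by span) and 50 kb on either side, by distance from the centre of the run in kb. In each panel the upper row shows mutant islands and the lower row wild-type islands, with members in full colour and other wild-type islands pale. The run on chromosome 10 has no mutant island between its first and last member, and those on chromosomes 12, 11, 1 and 17 have ones of 1 to 5.6 kb.

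A mutant island usually lay within 50 kb of a member, but farther off than from shared islands. The median distance from a member to the nearest mutant island was 9.6 kb (8.6 to 10.6), and to the nearest other wild-type island 6.4 kb (5.4 to 7.4). For shared islands, the nearest mutant island with no shared base lay at a median of 2.6 kb (2.4 to 2.6). Their nearest other wild-type island lay at 1.6 kb (1.4 to 1.6). By the rule members share no base with a mutant island, whereas shared islands do. The contrast in distance to mutant islands is therefore not independent of the choice. The shortest distance that islands of the same list can have is 0.8 kb, by the way they were called, whereas 4 members touched a mutant island without sharing a base. Within 2 kb of a mutant island lay 145 members, or 16.3% (13.9% to 18.8%), and within 10 kb 459, or 51.5% (48.1% to 54.8%). Beyond 50 kb lay 123 members, or 13.8% (11.6% to 16.2%), and beyond 200 kb 36, or 4.04% (2.84% to 5.54%). Mutant-only islands lay closer to the other list, at a median of 5.2 kb (4.4 to 6.2) from a wild-type island.

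Wild-type neighbours of members were often unmatched, whereas mutant neighbours were unmatched about as often as mutant islands in general. The nearest other wild-type island was wild-type-only for 322 members, or 36.1% (32.9% to 39.3%), against 8.98% (8.51% to 9.46%) of the shared islands. Members lie by the rule in stretches without mutant calls, and a close wild-type neighbour can lie in the same stretch. The contrast between members and shared islands is therefore not independent of the choice. Of all wild-type islands of any length on these chromosomes, 16.6% were wild-type-only. The nearest mutant island was mutant-only for 214 members, or 24.0% (21.2% to 26.9%), close to the 25.8% of all mutant islands that were. That nearest mutant island was short, with a median of 2600 bp. Mutant islands lay within 20 kb on both sides of 301 members, on 1 side of 332 and on neither side of 259.

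**Figure D4:**
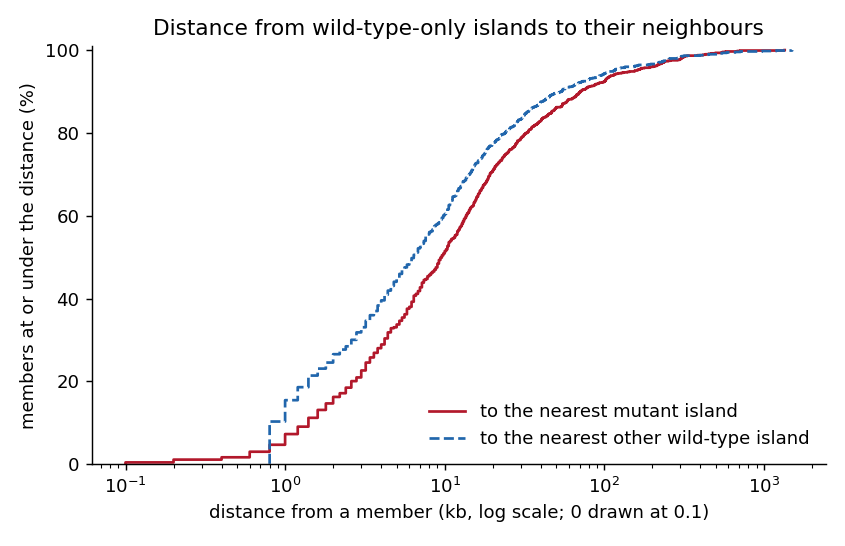
Cumulative percentage of the 892 members by distance in kb (log scale) to the nearest mutant island (solid line) and to the nearest other wild-type island (dashed line). The solid line reaches 51.5% at 10 kb and 86.2% at 50 kb, and the dashed line 60.4% and 89.6%.

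Most of the members farthest from any mutant island were isolated in the wild type too. The 10 farthest lay 429.6 to 1350.6 kb from a mutant island, and 7 of them had no island of either list in their 50 kb flanks. The farthest was on chromosome 3 from 111401401 to 111407800, with 6.4 kb and 2.89 per window inside 3247.8 kb without a mutant call, and the nearest other wild-type island lay 189.2 kb off. The second farthest was on chromosome 5 from 56043401 to 56048800, at 708.8 kb from a mutant and 1198.8 kb from another wild-type island. An exception to this isolation was the last of the 10, on chromosome 3 from 153120001 to 153126400, which had another wild-type island 3.2 kb away. The densest of the 10 was the 12.4 kb member of chromosome 13 described above, and a second member on that chromosome, from 72218601 to 72224000 with 1.86 per window, lay in the same mutant-free interval of 1900 kb. The others were on chromosomes 12, 7, 9 and 2, from 1.70 to 3.41 per window. None of the 10 was in a run.

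At the other end, 4 members ended where a mutant island began or began where one ended. They were on chromosome 1 from 65004601 to 65009600 (4.71 per window) and from 122002801 to 122008600 (1.73), on chromosome 18 from 56393601 to 56399000 (2.81) and on chromosome 5 from 140245601 to 140251000 (2.14). For these 4, a shift of a boundary by 1 window would have made them shared islands. A member of 8 kb on chromosome 13, from 12719001 to 12727000, lay 0.2 kb from a mutant island and reached 4.58 per window.

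Mutant cover was lower than wild-type cover around members, and the difference shrank with distance. The 10 kb on either side were covered to 10.5% in the mutant and to 17.7% in the wild type, a ratio of 0.596. For flanks of 50 kb the values were 15.9% in the mutant and 22.2% in the wild type, for 100 kb 18.0% and 22.6% in the same order, and for 500 kb 18.8% and 20.8%, a ratio of 0.902. Around shared islands the 50 kb flanks were covered to 36.5% in the mutant and to 35.7% in the wild type, so members lay in poorer surroundings in both libraries. The ratio within 500 kb of shared islands was 0.970. Around mutant-only islands the order was reversed, with 33.9% in the mutant and 23.4% in the wild type. A rule that asks for absence in a library favours places where that library has fewer calls nearby, so flanks close to members are not independent of the choice.

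Single members did not all follow the mean. In 219 of 892 members, or 24.6% (21.8% to 27.5%), the 50 kb flanks had more mutant than wild-type cover, against 53.1% (52.3% to 54.0%) of shared islands. No mutant island lay in the flanks of 124 members, no other wild-type island in those of 93, and neither in those of 67. The 67, or 7.51% (5.87% to 9.44%), were thus alone in both libraries over more than 100 kb.

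**Figure D5:**
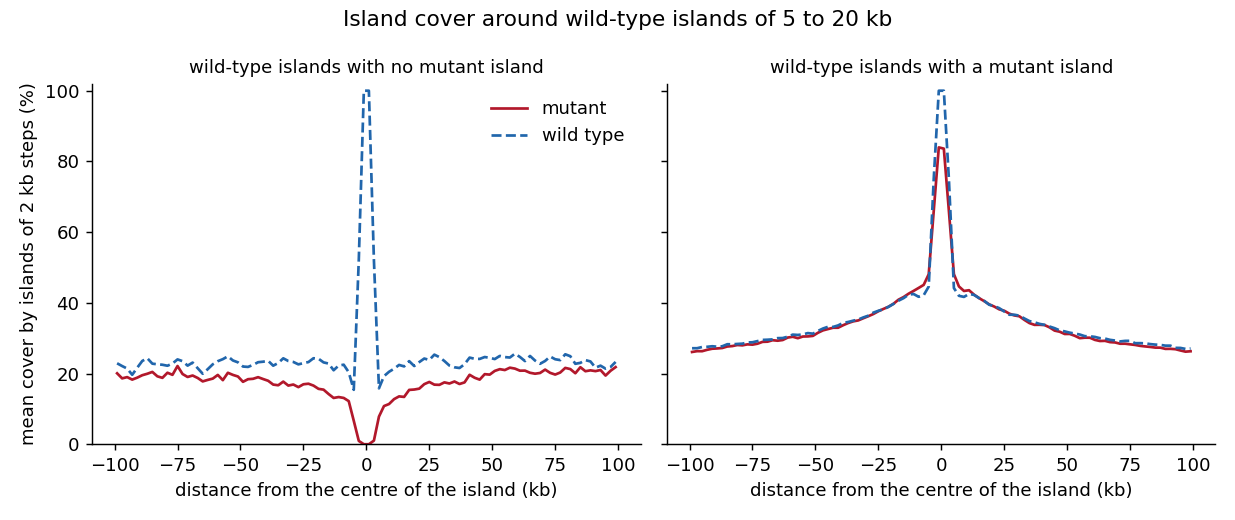
Mean cover by islands in steps of 2 kb up to 100 kb from the centre of members (left) and of shared islands (right), for the mutant list (solid line) and the wild-type list (dashed line). Around members mutant cover is 0% at the centre by the rule and at 9 kb after the centre it is 11.4%, against 20.5% for wild-type cover; around shared islands the lines run together outside the island, with 43.4% and 41.7% at that distance.

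Stretches between consecutive mutant islands that hold a member numbered 811, with a median of 51 kb, and 746 of them held 1 member. Wild-type islands covered at least 40 kb in 7 of them and at least 30 kb in 17. The most was on chromosome 11 from 52496001 to 53007800, where 61 kb of wild-type islands lay in 511.8 kb without a mutant call. Members made up 10.4 kb of it. Such cover includes parts of islands that reach in from outside: 18 touched this stretch, of which 16 lay wholly inside. On chromosome 5 from 148363001 to 148600800, 57.8 kb of wild-type islands lay in 237.8 kb, with 4 members of 26.2 kb in all. On chromosome 2 from 112475201 to 112689600, 51.4 kb lay in 214.4 kb. The stretches around the blocks on chromosomes 5 and 10 described above held 46.2 kb in 180.4 kb and 44 kb in 122.8 kb. Members were therefore only part of the wild-type cover in these stretches.

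The last 5 Mb of chromosome 7, between 147500001 and 152500000, contain the H19/Igf2 locus and held 5 members. They were 5 of 62 wild-type islands of 5 to 20 kb, or 8.06% (2.67% to 17.8%), an interval that holds the overall 5.88%. Of 47 mutant islands there, 0 were mutant-only. That count depends on the limits chosen. From 145000001 to 150000000, 5 of 53 mutant islands were mutant-only, and from 150000001 to 155000000, 0 of 25. The longest of the 5 members was 11.8 kb, from 149849201 to 149861000, with a score of 180 or 3.06 per window. It lay 99.6 kb from the nearest mutant island and had no island of either list in its 50 kb flanks. Another, from 149787201 to 149792400, had 2.21 per window and lay 58.8 kb from one. Both sat in a single stretch of 232.2 kb without a mutant call, from 149728401 to 149960600, of which wild-type islands covered 23 kb. Farther from the end of the chromosome, the member from 149401401 to 149406600 had 2.07 per window and likewise empty flanks. The other 2, from 152204801 to 152210000 and from 152306401 to 152311600, had 1.48 and 2.44 per window. Over all members the median length of the surrounding stretch without mutant calls was 56.2 kb (49.6 to 63.2) and the longest was 3247.8 kb.

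At the limits of the rule the values ran on smoothly. The 148 members of exactly 5000 bp had a median of 2.08 per window, and the 176 wild-type-only islands of 4800 bp, just too short, had 2.04. The highest scores among members of 5000 bp were 167 (the chromosome 13 member at 12864801), 135 (the chromosome 2 member at 119409401) and 118 (the chromosome 1 member at 65004601), then 114 on chromosome 2 from 92790801 to 92795800 and 107 on chromosome 8 from 42071001 to 42076000. Among islands of 4800 bp they were 174 on chromosome 1 from 82282401 to 82287200, 135 on chromosome 17 from 21529801 to 21534600, 129 on chromosome 11 from 78800201 to 78805000, 109 on chromosome 5 from 148476401 to 148481200 and 105 on chromosome 19 from 44613601 to 44618400. Above the upper limit lay 1 wild-type-only island of 24.4 kb with 6.21 per window, on chromosome 18 from 61960401 to 61984800. Just outside the rule of no shared base were 13 islands that shared at most 400 bp with a mutant island, with a median of 2.06 per window, and 89 that shared at most 1000 bp, with 2.28.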

How the data were processed

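For both H3K36me3 libraries the authors deposited an island list with a score per island. Bowtie 1.0.0, SICER 1.1 and build mm9 are named in the submitters' processing notes. File names give windows of 200 bp and gaps of 600 bp. Use of input DNA and removal of duplicate reads are not given in the sources used here. Scores are not scaled for depth or length, so scores per window were compared within each list. An exception was the alternative that applied the lowest wild-type score, unscaled, to the mutant list. Depth was solved from the scores of 1-window islands (14 mutant, 8 wild-type).

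Overlap, runs, distances and flank cover were computed with scipy 1.17.1, pandas 2.3.3 and numpy 2.4.6 under Python 3.11.15, and drawn with matplotlib 3.10.9. To check the code, 200 islands were removed from a copy of the wild-type list, and 200 of 200 were found as members against that copy. This checks the code alone. Named regions are the 10 longest, highest in score, highest per window and farthest from a mutant island, the 5 nearest to one, the 5 largest runs, and 5 on each side of 5 kb; stretches, the block on chromosome 5 and distal chromosome 7 were picked after their values were seen. Members and rules were chosen with earlier results of these data known. No gene annotation, sequence or gene list was used. Alternatives changed lengths, overlap, score limits, joining, chromosomes, run gap and flank width.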

Additional observations from a re-analysis of the deposited data

How the results depend on the processing

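The wild-type-only share of islands stayed above the mutant-only share under the 13 alternatives listed with a lower length limit of 3 kb or more, by 1.18 times (islands within 2 kb joined, or members of the upper 50% by score) to 2.74 times. Over islands of any length it was lower, with 16.6% wild-type-only against 25.8% mutant-only. The sizes themselves depended on the settings, in 42 of 68 recomputed values. With islands of at least 3 kb there were 4142 members, 13.6% of wild-type islands, against 11% mutant-only, and 43.7% of members lay in runs. With at least 8 kb the values were 96, 1.51%, 0.924% and 11.5%, with 2.46 per window. With at least 10 kb they were 29, 0.763%, 0.559% and 0%, with 3.62 per window and 4 kb to the nearest mutant island. Allowing 50% of the length to be shared gave 2578 members, 17.0% and 9.86%, and setting islands only against the upper 50% of the other list by score 2787, 18.4% and 13.5%. Joined islands gave 7.15%, 6.08% and a distance of 12.5 kb. Members of the upper 50% by score numbered 503, 3.57% with 2.69 per window. With chromosomes 4, 6, 14 and 15 kept, the share was 6.74%, 25.3% lay in runs and the median was 2.33 per window. Leaving out the 14283 mutant islands under the lowest wild-type score, an alternative chosen after seeing the data, gave 1358 members, 8.95% and 12.3 kb. Run gaps of 20 and 100 kb put 12.8% and 27.7% of members into runs. Per window that could have counted, the median score was 2.51, and within 1 kb classes of length members stood 1.27 below shared islands (a difference of -1.27). Using only mutant islands of the upper 50% by score or of at least 2 kb put the nearest at 25.7 and 13.8 kb. Flanks of 10 and 100 kb were covered to 10.5% and 18.0% in the mutant, and the 10 kb flanks to 17.7% in the wild type. The cause of these changes was not tested.

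No paired analysis was possible because there is 1 library per genotype and no result comes from a test; leaving out a replicate would leave a genotype with no library. The planned share of members inside genes was not run, since no mm9 annotation was used. Of all members, 62.2% averaged less per window than a window of 5 reads scores, so these hold windows that did not count; what more reads would change was not tested.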
